A study of Mus musculus with 15 samples.

Results

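The 10 alpha- and beta-tubulin genes described here are Tuba1a, Tuba1b, Tuba1c, Tuba4a, Tubb2a, Tubb2b, Tubb3, Tubb4b, Tubb5 and Tubb6, out of 49315 gene IDs in the count tables. They were taken by symbol and matched to their Ensembl IDs, and the set was chosen by the difference of Tubb3 between the 2 knockdowns, which is therefore given as a description with no test. The cells were primary myoblasts, the dividing precursors of muscle fibres, from wild-type (WT) C57BL/6J mouse muscle, and all of them received small interfering RNA with the lipid reagent RNAiMax and were then differentiated for 1 day. The siCtrl group received a control RNA, the siLmod1 group an RNA against Lmod1, which encodes an actin-filament nucleator of the leiomodin family, and the siSirt1 group an RNA against Sirt1, an NAD-dependent protein deacetylase. Each group held 5 libraries of polyadenylated RNA, numbered 1, 2, 3, 4 and 7, and each number is taken as 1 primary line that occurs in all 3 groups. The study's design text asks how the early myogenic programme changes under each knockdown against siCtrl, with a rescue by the double knockdown in view; no double-knockdown library was analysed here. The age and sex of the mice and the number of mice behind each line were not stated in the labels.

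Alpha- and beta-tubulin form the heterodimer that polymerises head to tail into microtubules, and each family is encoded by several genes, or isotypes, whose proteins differ mainly in an acidic tail at the carboxy terminus that faces outward from the microtubule. In differentiating muscle cells microtubules leave the centrosome, line up along the long axis of the cell and are nucleated from the nuclear envelope, while fusion turns the myoblasts into myotubes. Cells also adjust tubulin messenger RNA to the amount of free tubulin dimer, by a co-translational decay that reads the first residues of the nascent chain.

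The coding ends are printed here because they hold the regulated start and the part of the protein that differs most between isotypes. All 10 genes open with the codons of Met-Arg-Glu-Cys in the alpha family or Met-Arg-Glu-Ile in the beta family, the stretch read in tubulin autoregulation. The first 30 coding bases, 5′ to 3′ on the strand of the gene in the GENCODE M21 transcripts of build mm10, are shown for 1 abundant alpha gene and for the 3 beta genes that differed most between siSirt1 and siLmod1, with the first 12 bases (4 codons) in capitals.
Tuba1a: ATGCGTGAGTGCatctccatccatgttggc
Tubb3: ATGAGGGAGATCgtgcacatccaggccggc
Tubb5: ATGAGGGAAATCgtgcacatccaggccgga
Tubb2b: ATGCGAGAGATCgtgcacattcaggcgggc
The last 60 coding bases before the stop codon, which encode the final 20 residues, are shown for Tuba4a, Tubb3, Tubb5 and Tubb2b, with the glutamate and aspartate codons (GAA, GAG, GAC and GAT) in capitals.
Tuba4a: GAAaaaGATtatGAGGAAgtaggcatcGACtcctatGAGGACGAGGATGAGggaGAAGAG
Tubb3: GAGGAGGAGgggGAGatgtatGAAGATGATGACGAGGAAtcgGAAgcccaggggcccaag
Tubb5: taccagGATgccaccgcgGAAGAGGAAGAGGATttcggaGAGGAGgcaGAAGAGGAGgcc
Tubb2b: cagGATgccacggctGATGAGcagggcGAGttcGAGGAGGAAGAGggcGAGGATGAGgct
Of the last 20 codons, 11 were acidic in each of the 6 beta genes and 12 in Tuba4a. Tubb3 has the longest beta coding sequence, 450 codons against 444 in Tubb5, 445 in Tubb2a, Tubb2b and Tubb4b and 447 in Tubb6, and its sequence goes on past its last acidic codon where the other beta genes shown stop soon after theirs.

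The genes lie on several chromosomes, in part as neighbouring copies, and each has 4 exons in the transcript with the longest complete coding sequence (coordinates are of mm10). Tubb3 (ENSMUSG00000062380) lies at chr8:123411424-123422015 on the plus strand, Tubb5 (ENSMUSG00000001525) at chr17:35833921-35838306 on the minus strand and Tubb4b (ENSMUSG00000036752) at chr2:25222160-25224702 on the minus strand. Tuba1b (ENSMUSG00000023004, chr15:98931425-98934565), Tuba1a (ENSMUSG00000072235, chr15:98949837-98953703) and Tuba1c (ENSMUSG00000043091, chr15:99029891-99038110) form a cluster with gaps of 15271 and 76187 bases. Tubb2a (ENSMUSG00000058672, chr13:34074274-34078007) and Tubb2b (ENSMUSG00000045136, chr13:34126748-34130466) are 48740 bases apart, Tuba4a (ENSMUSG00000026202) lies at chr1:75214228-75219865, and Tubb6 (ENSMUSG00000001473) is given by its identifier only. The coding sequences were 84.7% to 98.3% identical between pairs of alpha genes, highest for Tuba1a with Tuba1b, and 80.2% to 96.5% identical between pairs of beta genes, highest for Tubb2a with Tubb2b.

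This likeness limits how far reads can be assigned. Of all stretches of 150 bases, the read length, in the chosen transcript, 54.7% of Tuba1a, 57.9% of Tuba1b and 46.7% of Tuba1c occurred unchanged in another gene, so the split of counts among these 3 genes is uncertain. The same held for 27.9% of Tubb2a and 20.1% of Tubb2b, which share with each other, and for 16.8% of Tubb4b, which shares with the pseudogene Tubb4b-ps1 (at most 18 counts in a library). Tuba4a overlaps Stk16 (at most 1609 counts), with which it shares 45.7% of its stretches, and libraries without strand cannot tell the 2 genes apart there. None of the 150-base stretches of Tubb3, Tubb5 or Tubb6 was found in another gene, so reads of this length that match exactly come from 1 place among the annotated transcripts.

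Total counts were 21004908 to 33601761 per library, and 3 counts correspond to 0.0893 to 0.143 CPM, the count scaled to a common library total. Lmod1 was 29.3 ± 15 CPM (SD, n = 5) in siCtrl and 3.46 ± 1.51 CPM in siLmod1. Sirt1 was 25.3 ± 6.64 CPM in siCtrl and 6.65 ± 3.73 CPM in siSirt1. Both targets were lower than in siCtrl in 5 of 5 lines of their own knockdown. In edgeR with the line number as a block both falls passed (adjusted p = 2.8e-06 for Lmod1 and 0.0027 for Sirt1). Without the block neither did: Lmod1 was −3.13 on the log2 scale (adjusted p = 0.069) and Sirt1 −2.06 (adjusted p = 0.074). Each target also differed from siCtrl in the other knockdown, in the same direction in 5 of 5 lines: Lmod1 was 17.1 ± 11.4 CPM in siSirt1, a change from siCtrl of −0.96 on the log2 scale (adjusted p = 0.027 in edgeR with the line number as a block, 0.72 without it), and Sirt1 was 38.1 ± 9.39 CPM in siLmod1, a change of 0.54 (adjusted p = 0.00014 with the block, 0.51 without it). All 10 of 10 myoblast and muscle markers were above 3 counts in each group, with a summed level of 9142 to 33454 CPM. Line 4 stood apart in all 3 groups: its summed neuron markers were 254 to 344 CPM (30.7 to 58 in the other lines, with Nefl and Nefm the most abundant). Its endothelial markers summed to 45.8 to 96.8 CPM (1.05 to 2.87), nearly all from Tek, which reached 96.2 CPM in siCtrl. No other endothelial marker was above 1.89 CPM in any library. Its Schwann and glial markers, mostly Erbb3, summed to 57.3 to 84.2 CPM (257 to 636). Its muscle markers summed to 9142 to 13879 CPM (18844 to 33454). Values that move by over 1.5 times without line 4 are also given without it. In bulk RNA, fewer cells of a type and less RNA per cell cannot be told apart.

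Tubulin messenger RNA in these cells came mostly from Tuba1a, Tubb6 and Tuba1b, while Tubb3, often used as a neuronal marker, had the lowest siCtrl mean of the 10. On the TPM scale, which corrects for gene length and library, the siCtrl levels were 2378 ± 525 for Tuba1a (SD, n = 5 here and below), 1796 ± 359 for Tubb6, 1217 ± 152 for Tuba1b and 839.6 ± 185 for Tubb2a. Tubb4b (396 ± 191), Tuba4a (354 ± 210.0), Tubb5 (312.8 ± 75.9) and Tubb2b (303.4 ± 154) followed, and Tuba1c (53.2 ± 54.8) and Tubb3 (24.2 ± 10.8) were lowest. The mean of Tuba1c was carried by line 4, and without it was 29.3 ± 13.3 TPM (SD, n = 4) in siCtrl, near Tubb3 at 26.2 ± 11.4 TPM. Within lines Tuba1c was above Tubb3 in 3 of 5 lines of siCtrl, 4 of 5 of siLmod1 and 2 of 5 of siSirt1. Of the 9 pairs of neighbours in this order, only Tubb6 and Tuba1b had ranges that did not overlap in siCtrl, so the order of the other neighbours lies within the spread between lines. The order within a line was firmer for some pairs, since Tubb2a was above Tubb4b in 5 of 5 lines of every group, whereas Tubb5 was above Tubb2b in only 1 of 5.

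**Figure D1:**
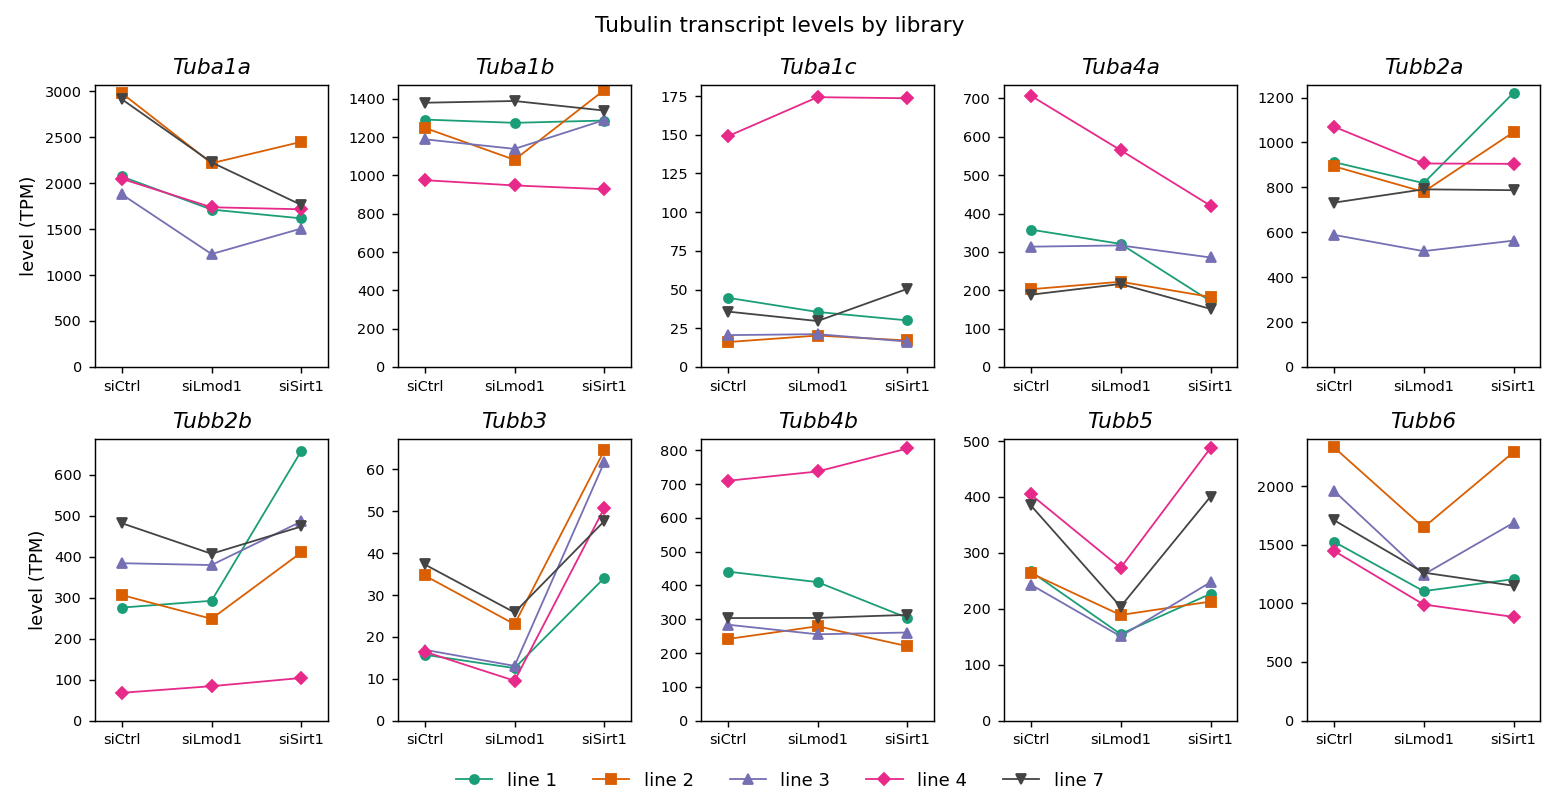
Level of each tubulin gene in TPM (vertical axes from 0, a separate scale for each gene) in siCtrl, siLmod1 and siSirt1 libraries; each point is 1 library and lines join the 3 libraries of the same number. Tubb3 is higher in siSirt1 than in siLmod1 in every line, Tubb5 is lower in siLmod1 than in siCtrl in every line, and line 4 lies far from the others for Tuba1c, Tubb4b and Tubb2b.

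Tubb3 encodes the class III beta-tubulin, known for its place in neurons and in dynamic microtubules. In siCtrl its level was 15.7, 34.7, 16.9, 16.5 and 37.3 TPM in lines 1, 2, 3, 4 and 7. In siLmod1 it was 12.5, 23.0, 13.1, 9.51 and 25.8 TPM, and in siSirt1 34.1, 64.6, 61.85, 50.85 and 47.7 TPM. Every siSirt1 library was above every siLmod1 library, while siCtrl overlapped both.

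Within lines, the log2 ratio of Tubb3 CPM to siCtrl was −0.33 to −0.80 in siLmod1, lower in 5 of 5 lines, and 0.35 to 1.90 in siSirt1, higher in 5 of 5 lines. The siSirt1 ratio was smallest in line 7 and largest in line 3. Between the knockdowns, siSirt1 over siLmod1 was 1.36, 1.48, 2.24, 2.38 and 0.86 on the log2 scale in lines 1, 2, 3, 4 and 7. The fitted log2 fold change of siSirt1 against siLmod1 was 1.53 (SE 0.32), or 1.58 (SE 0.23) with the line number as a block, a level 3-fold higher. Tubb3 was the only 1 of the 10 genes whose CPM did not overlap between siSirt1 and siLmod1; 5.48% of all genes tested had this property there, and nothing is read from it because this contrast chose the set. No p-value is given for Tubb3 in any comparison.

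The counts behind Tubb3 were 167 to 953 per library, well above the floor, and it is 1 of the 3 genes with no shared stretch. Its fitted change in siLmod1 against siCtrl, −0.58 (SE 0.38) on the log2 scale, was −0.37 without the siCtrl library of line 7 and −0.80 without the siLmod1 library of line 7. With the block it was −0.57 (SE 0.097) in siLmod1 and 1.03 (SE 0.22) in siSirt1, and −0.49 to −0.61 and 0.83 to 1.25 when each line was left out in turn.

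Values of other neuronal microtubule genes are set beside it. Dcx and Stmn2, which encode the microtubule binder doublecortin and a neuronal stathmin, were picked after their values were seen. Dcx was 0.996, 13, 4.43, 0.363 and 25.4 CPM in siCtrl, 0.378, 7.44, 0.534, 0.0347 and 3.91 CPM in siLmod1, and 23.1, 22.6, 11.9, 0.0371 and 14.5 CPM in siSirt1. With the block Dcx fell by 2.02 on the log2 scale in siLmod1 (SE 0.32, adjusted p = 0.0013) and was 0.92 (SE 0.78, adjusted p = 0.5) in siSirt1. Stmn2 was 2.03 ± 1.3 CPM in siCtrl, 1.27 ± 0.457 in siLmod1 and 4.06 ± 2.95 in siSirt1, and passed in neither comparison with the block (adjusted p = 0.086 and 0.16). Of the 11 neuron markers, all were above 3 counts in some library of each group; of the 10 tested, 1 (Dcx) was lower and 0 higher in siLmod1 and 0 were called in siSirt1 (edgeR with the block; 1 had an unadjusted p below 0.05 and DESeq2 with the block called 0). The list as a whole did not share the positive values of Dcx, Stmn2 and Tubb3 in siSirt1: 6 of the 10 were below 0, with a median of −0.11 on the log2 scale, among them Gap43 (−0.35, adjusted p = 0.59) and Elavl3 (−0.29, adjusted p = 0.56). In siLmod1 7 of the 10 were below 0, with a median of −0.16. In siCtrl their summed level was 31.7 to 319 CPM. The siLmod1 libraries had 30.7 to 254 CPM and the siSirt1 libraries 45.7 to 344 CPM, and their part in the Tubb3 values was not tested.

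Among 10298 other genes with a mean of at least 5 CPM, those whose line-centred log2(CPM + 1) followed Tubb3 most closely over the 15 libraries were Tet3 (r = 0.963), U2af2 (0.962), Zfp280b (0.957), Dnajc30 (0.951) and Lsm3 (0.943). Tet3, a 5-methylcytosine dioxygenase, was 115 ± 17.7 CPM in siCtrl, 96.2 ± 16.8 in siLmod1 and 173 ± 23.1 in siSirt1. Zfp280b, a zinc-finger gene, was 22.1 ± 1.08, 18.2 ± 2.25 and 34.3 ± 5 CPM in the same order. U2af2 encodes a splicing factor that binds the polypyrimidine tract and Lsm3 a subunit of the Lsm ring; their group means spanned less, from 170 to 204 CPM and from 21 to 25.9 CPM. Among the tubulins, Tubb2b (r = 0.72) and Tubb5 (0.598) were the most alike and Tuba4a (−0.659) the least. The 15 points share lines and treatments, so these are descriptions of likeness with no p.

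The 250 bases before the RefSeq start (build GRCm38.p6) are shown for Tubb3 and Tubb5, the 2 genes without shared stretches that differed most between the knockdowns, printed 5′ to 3′ on the strand of the gene with CCAAT boxes, in either orientation, in capitals. The Tubb3 stretch is chr8:123411303-123411552 on the plus strand and the Tubb5 stretch chr17:35838302-35838551 on the minus strand. The Tubb3 stretch runs past the GENCODE M21 gene start at 123411424, so part of it lies inside that gene model.
Tubb3: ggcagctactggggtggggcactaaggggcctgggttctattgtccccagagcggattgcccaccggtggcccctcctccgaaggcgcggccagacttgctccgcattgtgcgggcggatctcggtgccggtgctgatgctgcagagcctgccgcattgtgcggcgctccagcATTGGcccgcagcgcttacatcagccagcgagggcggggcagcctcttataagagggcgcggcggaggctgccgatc
Tubb5: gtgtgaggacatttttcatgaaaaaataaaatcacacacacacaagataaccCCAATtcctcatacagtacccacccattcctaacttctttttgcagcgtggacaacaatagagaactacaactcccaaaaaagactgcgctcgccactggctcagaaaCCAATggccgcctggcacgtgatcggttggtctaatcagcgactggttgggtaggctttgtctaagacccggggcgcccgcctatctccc
The search covered CCAAT and the E-box CANNTG, the core bound by MyoD and other basic helix-loop-helix factors, on both strands, and no base of these 2 stretches lay in both motifs. Tubb3 held 1 CCAAT box and Tubb5 held 2; 33.8% of 32851 promoters of the same length hold at least 1. An E-box was found in 7 of the 8 tubulin genes in the table, 1 in each, and not in this window of Tubb3; 66.2% of all promoters hold one. These are matches of letters only.

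In the Lmod1 knockdown 3 tubulin genes were lower when the line number was fitted as a block: Tubb5, the beta isotype common in dividing and other cells, Tubb6, the main beta isotype here, and Tuba1a, the main alpha isotype. All 3 were lower than siCtrl in 5 of 5 lines, and in that fit Tubb5 fell by 39.9%, Tubb6 fell by 32.5% and Tuba1a fell by 25.9%. Without the block 0 of the 9 genes tested passed an adjusted p below 0.05 (edgeR's quasi-likelihood test, Benjamini-Hochberg over all genes), where 0.113% of all 15022 genes did. Of the 9, 2 had an unadjusted p below 0.05, and DESeq2 without the block called 0. Lmod1 itself did not pass in that edgeR fit (adjusted p = 0.069), so the count of 0 does not show an absence of change. With the block 3 of 9 passed in edgeR, all lower, where 29.5% of all genes passed in either direction and 16.5% passed lower. DESeq2 with the block called 4 of 9, beside 3975 of all 30184 genes it was given, which had not passed the edgeR filter for low counts. The 3 of 9 tubulins called are thus near the share of all genes called in either direction and above the share called lower. With only 9 genes, nothing particular to tubulins is read from the count. None of the 10 genes had CPM that did not overlap between siLmod1 and siCtrl, against 2.64% of all genes.

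Tubb5 was 266.8, 263.8, 243.4, 404.7 and 385.3 TPM in lines 1, 2, 3, 4 and 7 of siCtrl and 154.7, 188.8, 150.7, 273.1 and 203.7 TPM in siLmod1. Only the siLmod1 library of line 4 reached into the siCtrl range. The log2 fold change was −0.74 (SE 0.24, adjusted p = 0.35) without the block and −0.73 (SE 0.058, adjusted p = 3.5e-05) with it.

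Tubb6 was 1527, 2333, 1962, 1449 and 1711 TPM in siCtrl and 1104, 1647, 1245, 989.9 and 1262 TPM in siLmod1, where again 1 library, that of line 2, was inside the siCtrl range. Its log2 ratios within lines were the most uniform of the 10 genes, −0.42 to −0.62 with an SD of 0.08. The log2 fold change was −0.57 both without the block (SE 0.18, adjusted p = 0.34) and with it (SE 0.051, adjusted p = 6.5e-05).

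Tuba1a was 2072, 2980, 1879, 2047 and 2914 TPM in siCtrl and 1712, 2216, 1228, 1737 and 2226 TPM in siLmod1. The 2 siLmod1 libraries of lines 2 and 7 lay inside the siCtrl range. The log2 fold change was −0.43 both without the block (SE 0.23, adjusted p = 0.65) and with it (SE 0.057, adjusted p = 0.0005). Since 54.7% of its 150-base stretches occur in another gene, this value holds for its counted reads. All 3 calls held when any line was left out of the blocked fit, with adjusted p of 2.5e-05 to 0.00062 for Tubb5, 6.9e-05 to 0.0009 for Tubb6 and 0.00036 to 0.0035 for Tuba1a.

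The other 6 tested genes did not pass in edgeR with the block and all lines. Tubb2a came nearest, at −0.18 on the log2 scale (SE 0.064, adjusted p = 0.06), and passed in DESeq2 with the block (−0.18, adjusted p = 0.038) and in edgeR without line 7 (−0.25, adjusted p = 0.014). Tuba1b, which is closest to Tuba1a in sequence, was −0.11 (SE 0.054, adjusted p = 0.16), and Tuba4a, Tubb2b, Tuba1c and Tubb4b were −0.07, −0.08, −0.05 and −0.04. The median log2 fold change with the block was −0.14 over the 10 genes, Tubb3 included, and −0.01 over all genes, and 10 of 10 were below 0. CPM ratios within lines are scaled by the library total and not as in the fit. By that measure Tuba1c, Tuba4a, Tubb2b and Tubb4b were each above siCtrl in 3 of 5 lines. Their mean log2 ratios were 0.01, −0.02, −0.03 and 0.01, so no fall of the whole family is read from the count.

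Markers of dividing cells are set beside these values. With the block 8 of 10 were lower and 0 higher in siLmod1, with a median of −0.65. Over all genes 16.5% were called lower in siLmod1 and 4.35% in siSirt1, and 1944 of 15022 and 406 of 14912 were called higher. The summed level of the dividing-cell markers was 48.2 to 395 CPM in siCtrl and 39.4 to 149 CPM in siLmod1. In siSirt1 0 of 10 passed in edgeR (3 at an unadjusted p below 0.05, and 3 called by DESeq2 with the block), with a median of −0.62 and a summed level of 40 to 335 CPM. Muscle markers were lower in 5 of 10 cases in siLmod1, Myog and Pax7 among them, with a median of −0.25. In siSirt1 their median was −0.34 and 8 of 10 were below 0; 1 passed in edgeR, the integrin gene Itga7 (−0.88, adjusted p = 0.018), and 4 were called by DESeq2 with the block. Fibroblast markers were lower in 2 of 5 tests in siLmod1 and higher in 1 of 5 in siSirt1, and their summed level ranged over 117 to 503 CPM (siCtrl), 86.7 to 297 CPM (siLmod1) and 106 to 795 CPM (siSirt1). The higher gene was Dcn, at 1.14 ± 0.941 CPM in siSirt1, and DESeq2 with the block called 0 there. Nearly all of the sum was Col3a1, at 355 ± 152 CPM in siCtrl, which was 0.18 (adjusted p = 0.47 in edgeR with the block) in siSirt1. The part of all these markers in the tubulin values was not tested.

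In the Sirt1 knockdown Tuba1a, the main alpha isotype, was lower with the line as a block. Tubb6 and Tuba4a were below siCtrl in 5 of 5 lines and passed in some blocked fits but not in edgeR's fit of siSirt1 with siCtrl alone. Tubb2b was above siCtrl in 4 of 5 lines and did not pass in that fit. Against the same siCtrl libraries, 0 of 9 genes passed without the block, where 0.127% of all 14912 genes did. Of the 9, 1 had an unadjusted p below 0.05 and DESeq2 without the block called 0. Sirt1 itself did not pass in the edgeR fit without the block (adjusted p = 0.074). With the block 1 of 9 passed in edgeR, Tuba1a, which fell by 30.5%; 7.07% of all genes passed in either direction and 4.35% passed lower. DESeq2 with the block called 3 of 9, beside 1940 of all 29998 genes it was given without the edgeR filter. The edgeR fit of all 15 libraries with the block also called 3 of 9, beside 2530 of 15716 genes. In both fits these were Tuba1a, Tubb6 and Tuba4a. With only 9 genes, nothing particular to tubulins is read from these counts. None of the 10 had CPM apart from siCtrl in all libraries, against 3.21% of all genes.

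Tuba1a was 1616, 2449, 1506, 1715 and 1761 TPM in lines 1, 2, 3, 4 and 7 of siSirt1, below its siCtrl library in 5 of 5 lines. The log2 fold change was −0.53 without the block (SE 0.22, adjusted p = 0.48) and −0.53 with it (SE 0.11, adjusted p = 0.03). The edgeR call was lost when any 1 of the 5 lines was left out, with adjusted p of 0.061 to 0.085 and log2 fold changes of −0.43 to −0.58.

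Tubb6 was 1206, 2289, 1687, 883.9 and 1150 TPM in siSirt1, with log2 ratios from −0.04 in line 2 to −0.76 in line 4, so that its spread over lines was wider than in siLmod1. With the block it was −0.51 (SE 0.14, adjusted p = 0.063 in edgeR, 0.0062 in DESeq2 and 0.018 in edgeR on all 15 libraries). Tuba4a, an alpha isotype whose printed tail ends in a glutamate codon, was 358.1, 202.6, 313.6, 707.5 and 188.3 TPM in siCtrl. It was 171.5, 182.5, 285.5, 420.5 and 151.4 TPM in siSirt1, and 320.9, 222.2, 316.9, 565.2 and 216.4 TPM in siLmod1. Its change in siSirt1 came mainly from lines 1 and 4, with log2 ratios of −1.15 and −0.79 against −0.11 to −0.31 elsewhere, and with the block it was −0.62 (SE 0.17, adjusted p = 0.066 in edgeR, 0.0042 in DESeq2 and 0.014 in edgeR on all 15 libraries).

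Tubb2b, a beta isotype prominent in the developing nervous system, was 275.9, 306.7, 384.3, 67.8 and 482.2 TPM in siCtrl and 659.2, 411, 486.4, 104.1 and 474 TPM in siSirt1. The log2 ratio was 1.17 in line 1, 0.37 to 0.57 in lines 2, 3 and 4 and −0.02 in line 7, and the blocked change of 0.38 (SE 0.16, adjusted p = 0.19) did not pass. Its neighbour Tubb2a, with which it shares reads, was −0.05 (SE 0.11, adjusted p = 0.83). Tubb5, which was lower in siLmod1, was −0.18 in siSirt1 (SE 0.098, adjusted p = 0.3), with 226.7, 212.9, 247.5, 487.7 and 400.6 TPM in the 5 lines and higher than siCtrl in 3 of them. Tubb4b, Tuba1c and Tuba1b were −0.25, −0.15 and −0.10, with adjusted p of 0.2, 0.56 and 0.59. The median with the block was −0.17 over the 10 genes and 0.01 over all genes, and 8 of 10 were below 0. By CPM ratios within lines, Tubb2a and Tuba1b had means of 0.06 and 0.02 on the log2 scale.

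Set side by side and with no test, the blocked log2 differences of siSirt1 from siLmod1 were 0.54 for Tubb5 (SE 0.11), 0.45 for Tubb2b (SE 0.15) and −0.56 for Tuba4a (SE 0.13). Tubb5 and Tubb2b were higher in siSirt1 than in siLmod1, and Tuba4a lower, in 5 of 5 lines. The other 6 genes beside Tubb3 lay between −0.22 and 0.12. Line 1 held the largest of these differences for Tuba4a (−0.99) and Tubb2b (1.09).

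**Figure D2:**
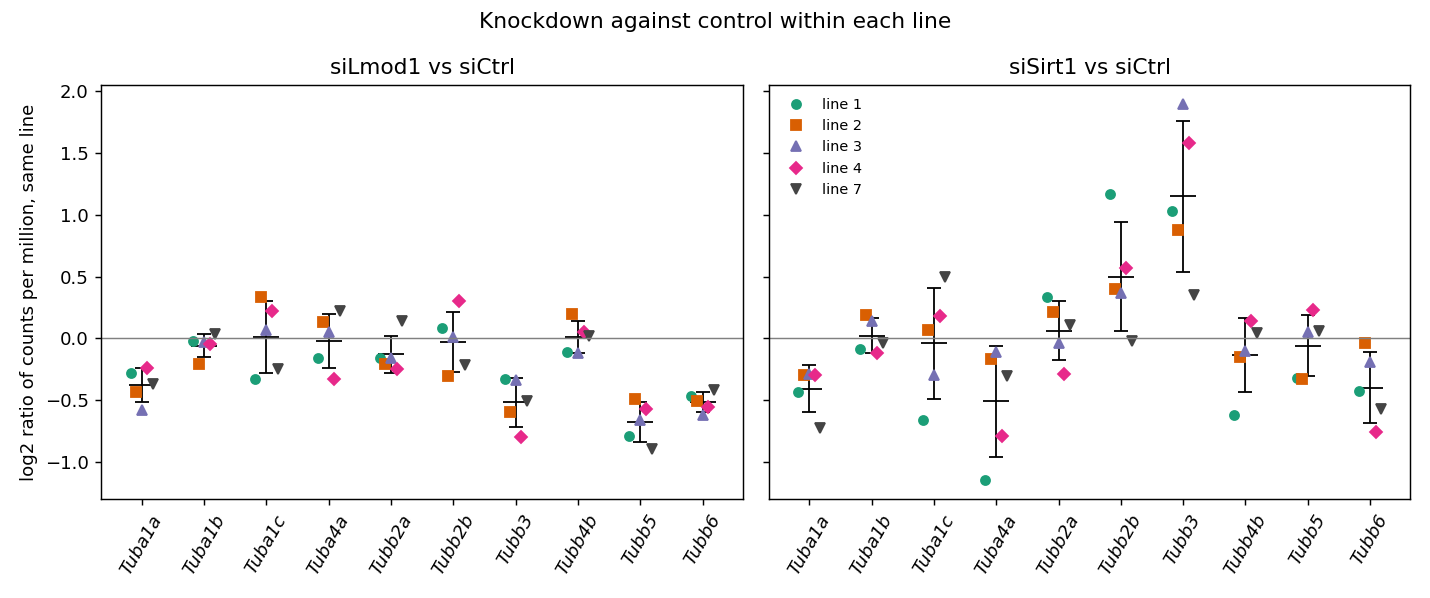
Log2 ratio of CPM of each knockdown library to the siCtrl library of the same line (vertical axis) for the 10 tubulin genes; points are lines, dashes are means over 5 lines and bars are SD. In siLmod1 the Tuba1a, Tubb3, Tubb5 and Tubb6 points all lie below 0, and in siSirt1 the Tubb3 points run from 0.35 to 1.90.

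The make-up of the 2 pools was set by the same few genes in every group. Tuba1a supplied 58.9% ± 6.39 of the summed alpha TPM in siCtrl, 53.5% ± 6.68 in siLmod1 and 53.4% ± 4.05 in siSirt1. Tuba1b supplied 30.6% ± 4.14, 34.9% ± 5.8 and 37.5% ± 5.58, and its share was above that of siCtrl in 5 of 5 lines of each knockdown. Tuba4a supplied 9.14% ± 5.67, 9.94% ± 4.43 and 7.35% ± 3.69, and Tuba1c 1.36% ± 1.42, 1.66% ± 1.93 and 1.76% ± 2.06. Without line 4 the Tuba1c shares were 0.736%, 0.797% and 0.861%.

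In the beta pool Tubb6 supplied 48.8% ± 7.89 in siCtrl, 43.1% ± 7.51 in siLmod1 and 40.3% ± 11.6 in siSirt1, and was below siCtrl in 5 of 5 lines of each knockdown. The share of Tubb5 was 8.53% ± 2.05 in siCtrl, 6.66% ± 1.44 in siLmod1, lower in 5 of 5 lines, and 9.28% ± 4.34 in siSirt1. Tubb2b supplied 8.33% ± 4.31, 9.91% ± 4.82 and 12.1% ± 5.81, above siCtrl in 5 of 5 lines of each knockdown. Tubb2a (22.8%, 26.1% and 25.6%) and Tubb4b (10.9%, 13.6% and 11.2%) made up most of the rest. Tubb3 supplied 0.652% ± 0.267, 0.573% ± 0.219 and 1.48% ± 0.339, so that even in siSirt1 no library had more than 1.87% of its beta TPM from Tubb3. The knockdowns share their siCtrl libraries, and shares within a pool are tied to one another, so no test is given.

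Summed over the family, alpha TPM was 4003 ± 473 in siCtrl, 3375 ± 423 in siLmod1 and 3368 ± 416 in siSirt1, lower than siCtrl in 5 of 5 lines of both knockdowns. Beta TPM was 3672 ± 253, 2903 ± 233 and 3522 ± 444, lower in 5 of 5 lines of siLmod1 and higher in 2 of 5 lines of siSirt1. The ratio of beta to alpha TPM was 0.924 ± 0.0783 in siCtrl, 0.866 ± 0.0642 in siLmod1, lower in 5 of 5 lines, and 1.05 ± 0.0819 in siSirt1, higher in 5 of 5 lines. The 10 genes together held 0.46% ± 0.0431 of a siCtrl library's counts, 0.379% ± 0.0398 of a siLmod1 library's and 0.405% ± 0.0422 of a siSirt1 library's.

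**Figure D3:**
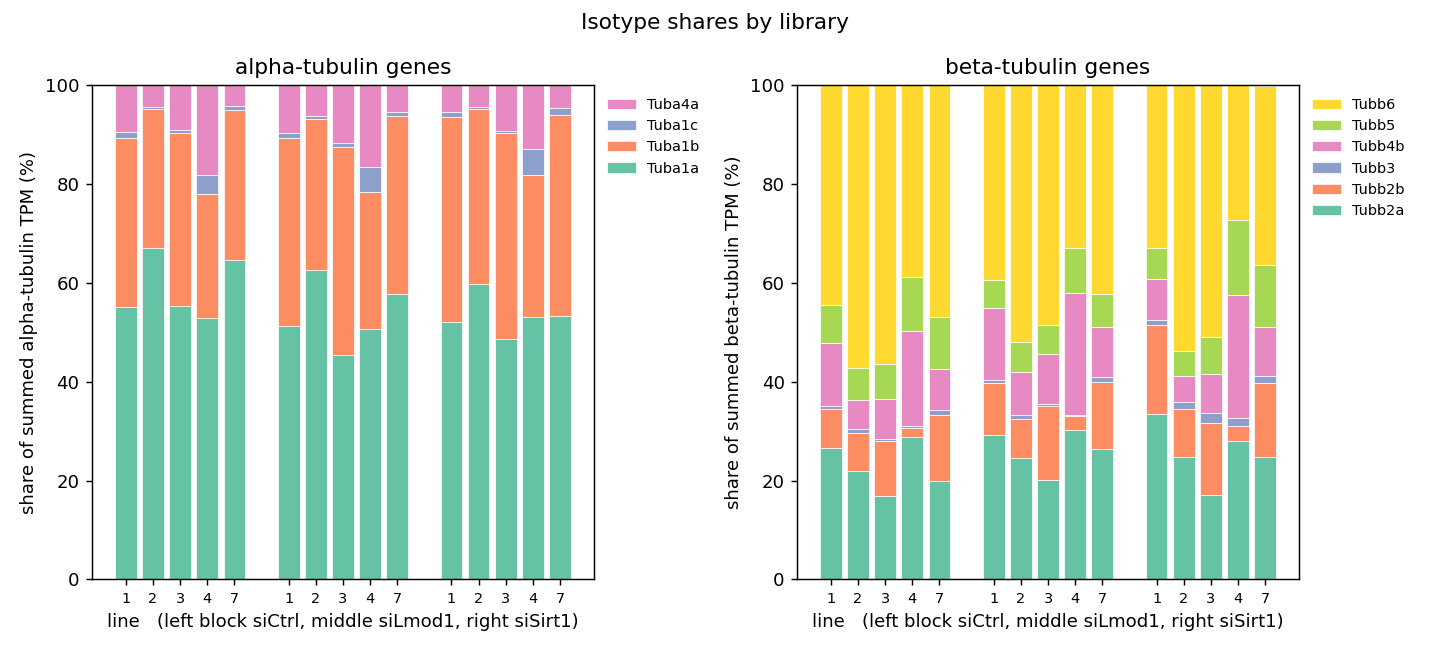
Share of each gene in the summed alpha-tubulin (left) and beta-tubulin (right) TPM, in percent, for each library; bars are libraries in the order of lines 1, 2, 3, 4 and 7 within siCtrl, siLmod1 and siSirt1. Tuba1a and Tubb6 are the widest bands in siCtrl, and line 4 shows wide Tuba4a, Tuba1c and Tubb4b bands in all 3 groups.

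For 9 of the 10 genes more of the variation lay between lines than between groups. Of the variation in log2 TPM over the 15 libraries, differences between lines held 96.9% for Tuba1c, 95.2% for Tubb4b, 88.6% for Tubb2b and 60.8% for Tuba1a, and differences between groups held 0.00557%, 0.826%, 7.14% and 29.9%. Tubb3 was the exception, at 23% for lines and 67.6% for groups, as the set was chosen for; Tubb5 held 51.7% and 41.7%.

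Without line 4 the line share was the larger for 7 of the 10 genes, again with no correction for the numbers of lines and groups. This split over 12 libraries was chosen after seeing the data. The line share was then 83.3% for Tuba1c, 74.3% for Tubb4b and 24.8% for Tubb2b, for which the group share became 47.2%, and it stayed at 61.5% for Tuba1a; for Tubb5 lines held 34.8% and groups 56.7%. The 3 libraries of line 4 had 149 to 174.3 TPM of Tuba1c against 16.1 to 50.5 in all other libraries, 709.9 to 805.8 TPM of Tubb4b against 220.1 to 441.1, and 420.5 to 707.5 TPM of Tuba4a against 151.4 to 358.1. It had only 67.8 to 104.1 TPM of Tubb2b against 248.5 to 659.2, and 928.3 to 975.5 TPM of Tuba1b against 1082 to 1447. For Tuba1a (1715 to 2047 TPM) and Tubb2a (904.7 to 1071 TPM) line 4 lay inside the range of the other lines. Tubb3 in line 4, at 9.51 to 50.85 TPM, lay within or just below the range of the other lines, 12.5 to 64.6 TPM. The markers of line 4 given above are set beside this isotype profile, and their part in it was not tested. Without line 4 the blocked fit called the same number of tubulin genes in siLmod1, 3 of 9, and 0 of 9 in siSirt1.

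Other genes of tubulin biology were taken from lists drawn up by role, and their calls are those of the blocked fit, since without the block 0 of the genes in these lists passed in either comparison (edgeR; of 142 tested, 10 in siLmod1 and 18 in siSirt1 had an unadjusted p below 0.05, and DESeq2 without the block called 2 and 6). Neither knocked-down target passed in that unblocked edgeR fit either, as given above. With the block 47 of the 142 were called in siLmod1 and 15 in siSirt1, beside the shares of all genes of 29.5% and 7.07% given above. For the lower counts of each list, the shares of all genes called lower were 16.5% and 4.35%. For the higher counts, 1944 of 15022 genes in siLmod1 and 406 of 14912 in siSirt1 were called higher. Of 10 remaining tubulin genes listed, 5 could be tested. Tubg1, the gamma-tubulin of the nucleation ring, was the most abundant of them at 35.4 ± 6.52 CPM in siCtrl, and fell by 0.18 on the log2 scale in siLmod1 (SE 0.062, adjusted p = 0.048). DESeq2 with the block called 0 of these 5 in siLmod1. In siSirt1 the change of Tubg1 was −0.31 (adjusted p = 0.11 in edgeR with the block). Tuba3b, Tubal3 and Tubb1 were at or under 3 counts in every library.

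New tubulin is folded by prefoldin and the CCT chaperonin. In siLmod1, 1 of 14 of their genes was higher (Vbp1, 0.16, adjusted p = 0.037) and 1 lower (Pfdn1, −0.24, adjusted p = 0.017). In siSirt1, 3 of 14 were lower, all CCT subunits: Cct6a (−0.35, SE 0.083, adjusted p = 0.044), Cct3 (−0.47, SE 0.12, adjusted p = 0.05 after rounding) and Cct5 (−0.33, SE 0.08, adjusted p = 0.05 after rounding), the last of which was named after its values were seen. The list's median was −0.19 in siSirt1 and −0.01 in siLmod1; whether the knockdowns differ was not tested. Of 8 folding cofactors and autoregulation genes, Arl2, a GTPase that works with the cofactors in dimer assembly, rose by 0.52 in siLmod1 (SE 0.086, adjusted p = 0.0017). Tbcel, a cofactor-E-like protein that lowers microtubule stability, rose by 0.21 in siLmod1 (adjusted p = 0.031) and by 0.61 in siSirt1 (SE 0.12, adjusted p = 0.024). Ttc5, which reads the nascent tubulin start in autoregulation and was picked after its values were seen, was −0.07 (adjusted p = 0.55) and 0.23 (adjusted p = 0.23).

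Of 16 nucleation genes, 1 was higher and 1 lower in siLmod1 and 1 was higher in siSirt1. Akap6, an anchor of the nuclear-envelope nucleation site of muscle cells, fell by 0.35 in siLmod1 (SE 0.049, adjusted p = 0.00068), and Syne1, which encodes nesprin-1 there, rose by 0.16 (adjusted p = 0.019). Mzt1, a small subunit of the gamma-tubulin ring complex, rose by 0.42 in siSirt1 (SE 0.088, adjusted p = 0.032).

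Of 31 tested genes whose proteins bind the lattice or the growing ends, 12 were lower and 3 higher in siLmod1, with a median of −0.15, and 1 was lower in siSirt1. Among all genes, 4.35% were lower in siSirt1 and 16.5% in siLmod1. Mid1, a microtubule-bound ubiquitin ligase, fell by 0.50 (SE 0.052, adjusted p = 0.00013) and Gas2l1, a linker of actin and microtubules, fell by 0.43 (SE 0.059, adjusted p = 0.00066). In siSirt1 Map7d1 fell by 0.51 (SE 0.079, adjusted p = 0.013).

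Of 18 severing and depolymerising genes, 4 were lower and 2 higher in siLmod1 and 2 were higher in siSirt1. The higher genes include Tbcel in both knockdowns, which is also counted among the cofactors above. The mitotic depolymerising kinesins Kif18b and Kif2c each fell by 0.89 in siLmod1 (SE 0.16 and 0.2, adjusted p = 0.0023 and 0.0074), beside the lower markers of dividing cells given above. Katnal2, a katanin-like gene, rose by 1.12 in siSirt1 (SE 0.23, adjusted p = 0.031), from 2.07 to 5.28 CPM.

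Of 19 tubulin-modifying enzymes, 4 were lower and 2 higher in siLmod1 and 1 was higher in siSirt1. Ttl, the ligase that puts the terminal tyrosine back on alpha-tubulin, was 36.3 ± 8.51 CPM in siCtrl and 24.4 ± 6.25 CPM in siLmod1, lower in 5 of 5 lines, and fell by 0.63 (SE 0.061, adjusted p = 8.8e-05). Ttll5, a polyglutamylase, fell by 0.65 (SE 0.066, adjusted p = 0.00012). Agbl5, a carboxypeptidase that removes glutamates from the branch points of such chains, rose by 0.63 in siSirt1 (SE 0.15, adjusted p = 0.048).

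Of 32 motor genes, 8 were lower and 6 higher in siLmod1 and 7 were lower and 0 higher in siSirt1, where the median was −0.15. Among all genes, 16.5% were lower in siLmod1 and 4.35% in siSirt1. Kifap3, an adaptor of kinesin-2, fell by 0.33 (adjusted p = 0.0011) and Dync1h1, the heavy chain of cytoplasmic dynein, rose by 0.28 (adjusted p = 0.0053) in siLmod1. In siSirt1 Pafah1b1, the dynein regulator LIS1, fell by 0.48 (SE 0.076, adjusted p = 0.013) and Klc4, a kinesin light chain, fell by 0.56 (SE 0.088, adjusted p = 0.013).

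**Figure D4:**
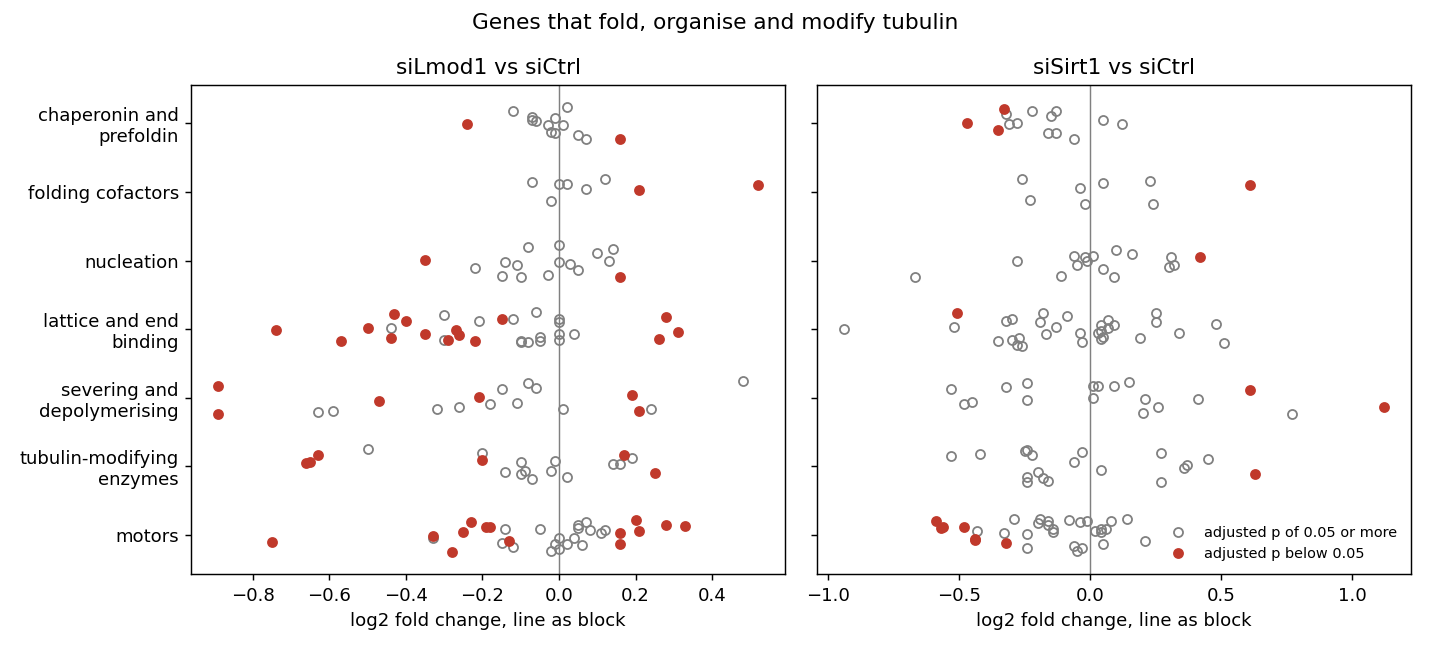
Log2 fold change with the line as a block (horizontal axes, a separate scale for each comparison) of genes that fold, organise and modify tubulin, by list; each circle is 1 gene, filled where the adjusted p is below 0.05. The lattice and end-binding genes hold 15 filled circles in siLmod1, 12 of them below 0, and all 7 filled motor genes in siSirt1 lie below 0. Among all genes, 16.5% were called lower in siLmod1 and 4.35% in siSirt1.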

How the data were processed

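RNA of 15 libraries in 3 groups was analysed from raw read counts per Ensembl gene, which the authors deposited without normalization, and from the authors' deposited TPM, which scale counts by gene length and library. Per the labels' protocols the libraries were made with the TruSeq v2 kit from TriFast RNA, and per the submitters' processing notes DESeq2 and build mm10 were used, with the aligner, counter and annotation release not given in the sources used here. The columns of a library that occurs in several deposited tables were identical for 15 of 15 libraries, in counts and in TPM. Rows without a symbol held 0.032% of counts. The deposited normalized counts were not used.

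The members, lists and tests were chosen with earlier results of these data known. For each knockdown against siCtrl, counts were filtered with filterByExpr, which all 10 tubulin genes passed, scaled by TMM and tested with the quasi-likelihood F test of edgeR 4.0.16 in R 4.3.3, with Benjamini-Hochberg adjustment over all genes and a threshold of 0.05. CPM are counts over the library total. Alternatives were the line number as a block, all 15 libraries in 1 fit, other scalings, no filter, DESeq2 1.42.0 and leaving out libraries or lines. The fit was also run on simulated counts in which every gene had the same line spread and the same dispersion. The real libraries do not share that setting, so nothing is read from it on missed or false calls here. Named genes were the 10 members, Lmod1 and Sirt1, up to 2 called genes of smallest p per list and knockdown, and the 5 genes most like Tubb3. Other genes of the lists (Cct5, Ttc5 and single markers or scarce tubulins) were named after their values were seen.

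The numbers pair the libraries. The design text names 5 different primary lines, and deviations of log2 CPM from the group means over 14689 genes correlated at 0.331 to 0.938 between libraries of the same number (15 pairs) and at −0.585 to 0.307 between different numbers (60 pairs); siSirt1 line 1 had the lowest values with its own number. Blocked values therefore stand beside the unblocked ones. Without the block, p-values are set against the spread between these lines. With it, line differences are taken out first, and p-values are set against the spread that remains. Sequences came from GENCODE M21 transcripts and RefSeq promoters, which held 8 of the 10 genes. Python 3.11.15, numpy 2.4.6, pandas 2.3.3 and matplotlib 3.10.9 were used.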

Additional observations from a re-analysis of the deposited data

Results flagged for a closer look

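Of the 30 groups of 5 libraries (10 genes in 3 groups), 5 held a library whose TPM lay far from the other 4 by Dixon's test; chance alone gives about 1 in 20 such groups. Tuba1c in line 4 was 149 TPM in siCtrl (nearest other library 44.7), 174.3 in siLmod1 (35.5) and 173.6 in siSirt1 (50.5). Tubb4b in line 4 of siSirt1 was 805.8 TPM (313). Tuba1a in line 2 of siSirt1 was 2449 TPM (1761).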

How the results depend on the processing

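Under the replicate block, which follows the pairing of the lines, genes called rose from 17 to 4430 in siLmod1 and from 19 to 1054 in siSirt1, and tubulin genes called from 0 to 3 and from 0 to 1. DESeq2 called 261 and 294 genes, and with the replicate block 3975 and 1940 genes with 4 and 3 tubulin genes. All 15 libraries in 1 fit gave 38 and 150 genes, and with the replicate block 1427 and 2530 genes with 3 and 3 tubulin genes. Without the filter 6 and 7 genes passed. Unadjusted p below 0.05 without the block was reached by 1351 and 1440 genes. Leaving out 1 library at a time gave 3 to 10 genes in siLmod1 and 3 to 13 in siSirt1, with 0 tubulin genes in each; the replicate block without line 1, 2, 3, 4 or 7 gave 2833, 3758, 3534, 4264 and 3314 genes in siLmod1, with 3 to 4 tubulin genes, and 332, 411, 398, 525 and 580 in siSirt1, with 0. Other scalings (RLE and upper quartile) moved none of these counts by over 1.5 times.

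The direction of 6 genes near 0 turned in some settings. Tuba1c in siLmod1 (0.01) was −0.05 with the replicate block, −0.05 with DESeq2 and the block and −0.04 with all 15 libraries and the block; leaving out libraries gave −1.11 to 0.95, and the block without 1 line −0.10 to 0.04 (−0.10, −0.07 and −0.09 without lines 2, 3 and 4). In siSirt1 its leave-out values ran from −1.12 to 0.87. Leaving out 1 library, the ranges in siLmod1 were −0.49 to 0.30 for Tuba4a, −0.39 to 0.10 for Tubb2b and −0.43 to 0.32 for Tubb4b, and with the block and 1 line left out −0.14 to 0.02 for Tuba4a and −0.14 to 0.00 for Tubb2b. In siSirt1 they were −0.17 to 0.09 for Tubb2a (−0.13 to 0.05 with the block), −0.71 to 0.15 for Tubb4b and −0.37 to 0.00 for Tubb5. The cause was not tested. Tuba1a, Tubb5 and Tubb6 in siLmod1 and Tuba1a, Tubb6, Tuba4a and Tubb3 in siSirt1 kept their direction in all 23 alternatives. Isotype shares moved by less than 1 SD in all 7 alternatives, among them union exon lengths of GENCODE M21, an alternative chosen after seeing the data. Depth limits Tubb3 most, at 167 to 953 counts per library.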
